A study of Mus musculus with 211 samples.

Results

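The genes described here are 5 members of the BTG and TOB family of antiproliferative genes, *Btg1*, *Btg2*, *Btg3*, *Tob1* and *Tob2*. They were chosen by family name and found in the deposited table by Ensembl identifier, and all 5 were among its 48709 genes. The data are single-cell RNA-seq read counts from *Lfng*-EGFP mice, a transgenic line on the CD1 strain in which GFP is driven by regulatory sequence of *Lfng*, a gene of cochlear supporting cells (SCs). GFP-positive cells were sorted from adult cochleae and captured on the Fluidigm C1, a microfluidic chip that makes a cDNA library from each cell. The 211 cells come from 8 captures at postnatal day 60 (P60) and 4 captures at postnatal day 120 (P120). Every mouse carried the transgene and the labels name no treatment. A capture was a pool, of 4 mice by the methods and of 4 to 5 cochleae by the labels, which do not match, so how many animals stand behind a capture is not settled. The capture was taken as the replicate, and the p-values between the ages measure the spread between these pools. Those of the comparison of cells within captures measure how that difference varies from capture to capture.

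The labels name all 211 cells as adult cochlear SCs, and the defining markers were checked in the same table. Of 15 SC markers, 14 had reads and *Cldn11* had 0, and their summed level was 364 CPM (counts scaled to a total of 1e6). At least 3 of the SC markers reached 10 reads in 2.84% of cells. Of 12 neutrophil markers, all 12 had reads, and at least 3 of them reached 10 reads in 93.4% of cells. The summed neutrophil markers took 159989 CPM, and lay between 21452 and 263734 CPM over the 12 captures. The cells are therefore called GFP-sorted cochlear cells below. The median cell had 736455 reads on genes, the extremes were 41 and 5361476 reads, and 33 cells had fewer than 10000. Capture 10c was the shallowest, with a median of 451 reads over its 13 cells. Captures 9c, 10c, 17c, 19c, 20c and 21c, all P60, carry the sequencing run name S047, and P60 captures 31 and 40 and all 4 P120 captures carry run names beginning with S059.

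BTG and TOB proteins share an N-terminal domain that binds the deadenylase subunits of the CCR4-NOT complex, the main machine that shortens the poly(A) tails of messenger RNA. Through this contact they speed the decay of bound transcripts, and forced expression of family members slows the passage of cells from G1 to S phase. *Btg2* is an immediate early gene and a target of p53, *Btg1* is high in quiescent blood cells, and the TOB proteins carry a longer C-terminal part with which they also bind poly(A)-binding protein. *Mki67* and *Top2a*, used here to divide the cells, encode a chromosome-coating protein and a DNA topoisomerase of cycling cells.

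*Btg1* (ENSMUSG00000036478.7) lies on the plus strand at chr10:96617006-96622809 of GRCm38, and *Btg2* (ENSMUSG00000020423.6) on the minus strand at chr1:134075170-134079120. *Btg3* (ENSMUSG00000022863.14) lies at chr16:78332637-78377192 on the minus strand, *Tob1* (ENSMUSG00000037573.5) at chr11:94211454-94215495 on the plus strand and *Tob2* (ENSMUSG00000048546.7) at chr15:81848272-81858796 on the minus strand. All 5 are annotated as protein-coding. The rest of the family in the annotation had 1 read in all, in *Btg4*. The *Btg1* relatives *Btg1-ps1* and *Btg1-ps2* on chromosome X had 0 reads in 211 cells, which allows a share of cells with a read of up to 1.73%. How the authors' counting treated reads that match both *Btg1* and these copies is not given in the sources used here.

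*Btg1* and *Btg2* carry most of the results, and the study designed ddPCR primers for both. The primers are shown because they fix which stretch of each gene was addressed, and neither pair matched a transcript of another family gene. The *Btg1* pair matches coding sequence, at chr10:96618316-96618337 and chr10:96618573-96618594. The *Btg2* pair matches the 3' untranslated part of its transcript, at chr1:134076607-134076628 and chr1:134076464-134076485. The sequences are written 5′ to 3′ in lower case.
*Btg1* forward: gggatcaggttaccgttgtatt
*Btg1* reverse: cccaagagaagttcctccttac
*Btg2* forward: ctgctttgtatgggtggatagt
*Btg2* reverse: gagccacctctcaaaggaatag

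The promoters of the same pair are shown because their transcripts moved together in the comparison of cells below. The windows are the 250 bases before the start site in RefSeq on GRCm38.p6, chr1:134079156-134079405 on the minus strand for *Btg2* and chr10:96616751-96617000 on the plus strand for *Btg1*, each printed 5′ to 3′ on its own strand. Capitals mark the core of the cyclic AMP response element, TGACGT or its reverse complement ACGTCA, which was searched on both strands. The motif was picked after the sequences had been read.
*Btg2* promoter: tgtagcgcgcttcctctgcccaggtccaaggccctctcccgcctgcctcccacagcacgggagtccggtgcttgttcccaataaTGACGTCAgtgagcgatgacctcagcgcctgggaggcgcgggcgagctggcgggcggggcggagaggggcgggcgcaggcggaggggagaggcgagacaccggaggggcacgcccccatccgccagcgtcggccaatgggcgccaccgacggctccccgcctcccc
*Btg1* promoter: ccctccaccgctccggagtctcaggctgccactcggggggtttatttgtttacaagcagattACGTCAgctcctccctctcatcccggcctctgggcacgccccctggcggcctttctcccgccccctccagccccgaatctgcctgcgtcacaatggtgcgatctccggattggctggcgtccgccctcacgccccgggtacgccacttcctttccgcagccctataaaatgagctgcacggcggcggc
The *Btg2* window held 2 overlapping matches, which together make the full palindrome, and the *Btg1* window held 1. The windows of *Tob1*, *Tob2* and *Btg3* held 0. Of 32851 RefSeq promoter windows of this length, 6.47% held a match. The letters CCAAT and TATAAA were also searched. CCAAT lay in the windows of *Btg1*, *Btg2*, *Tob1* and *Btg3* and in 33.8% of all windows. TATAAA lay in those of *Btg1* and *Tob1* and in 12.4% of all windows, so neither was shared by *Btg1* and *Btg2* alone. These are matches of letters and not measured binding sites.

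*Btg1* and *Btg2* were detected in nearly all cells, at levels that differed widely between cells, whereas *Tob1* and *Tob2* were sparse and *Btg3* was close to absent. *Btg1*, the founder member of the family, took 1379675 reads, 0.627% of all reads on genes, and ranked 12 among all genes. Of the 211 cells, 206 held a read, 97.6% with an exact 95% interval of 94.6% to 99.2%, and 10 or more reads in 82.9%. *Btg2* took 617607 reads, 0.281% of the total, and ranked 23. It had a read in 200 cells, 94.8% with an interval of 90.9% to 97.4%, and 10 or more reads in 70.6%. These intervals cover counting error only. Per kilobase of exon the level was 1188 CPM for *Btg1* and 1023 CPM for *Btg2*, so that the pair stood closer per length than by reads.

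*Tob1* had 15890 reads in 73 cells, 34.6% with an interval of 28.2% to 41.4%, and 31.5 CPM per kilobase. *Tob2* had 5548 reads in 35 cells, 16.6% with an interval of 11.8% to 22.3%, and 3.78 CPM per kilobase. *Btg3* had 118 reads in 4 cells, of which 82 came from a single cell. The order per kilobase was thus *Btg1*, *Btg2*, *Tob1*, *Tob2* and *Btg3*, and the levels of the neighbors *Btg1* and *Btg2* overlapped widely between captures, as did those of *Tob1* and *Tob2*. When each of the 164 cells with at least 50000 reads was thinned at random to that depth, a read was seen in 93.3% of cells for *Btg1*, 84.1% for *Btg2*, 20.1% for *Tob1*, 9.76% for *Tob2* and 1.83% for *Btg3*.

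Levels differed widely from cell to cell. In the 164 deeper cells the median was 1905 CPM for *Btg1*, with quartiles of 323 and 11236 CPM and a highest cell of 47952 CPM. For *Btg2* the median was 614 CPM, the quartiles 32.6 and 2948 CPM and the highest cell 69636 CPM. A level of at least 10000 CPM, which is 1% of a cell's reads, was reached by 44 of these cells for *Btg1* and by 16 for *Btg2*. The sparse members were concentrated in few cells, with 85.7% of all *Tob1* reads and 95.9% of all *Tob2* reads in the 10 highest cells. For *Btg1* the 10 highest cells held 36.4% of reads and for *Btg2* 51.8%.

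For the ages, the reads of all cells in a capture were added up. No member of the 4 that could be tested differed between P60 and P120 beyond the spread between captures. *Btg1* at P60 ranged from 302 CPM in capture 10c to 27711 CPM in capture 20c, with a median of 6200 CPM over 8 captures. At P120 its levels were 3397 CPM in capture 28, 3489 CPM in capture 32, 4972 CPM in capture 36 and 8012 CPM in capture 38. All 4 P120 captures lay inside the P60 range. The edgeR quasi-likelihood test with Benjamini-Hochberg adjustment gave a log2 fold change of P120 over P60 of -0.77 with a standard error (SE) of 1.26 and an adjusted p of 1. The approximate 95% interval of this difference ran from -3.23 to 1.69, so sizable changes in either direction were not detectable here.

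*Btg2* at P60 ranged from 29.8 CPM in capture 17c to 5703 CPM in capture 19c, with a median of 1819 CPM. At P120 it stood at 4080 CPM in capture 28, 2305 CPM in capture 32, 4118 CPM in capture 36 and 2911 CPM in capture 38. The P120 captures sat close together and again inside the P60 range. The log2 fold change of *Btg2* was 0.69 with an SE of 1.24 (edgeR adjusted p = 1), and without capture 36 it was -0.02.

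*Tob1* at P60 ranged from 0 CPM in captures 10c and 19c to 131 CPM in capture 21c, with a median of 18 CPM. At P120 its levels were 78.5, 120, 0.438 and 84.9 CPM in captures 28, 32, 36 and 38. Capture 36 was low and the other P120 captures lay in the upper part of the P60 range. *Tob2* at P60 ranged from 0 CPM in capture 17c to 39.6 CPM in capture 9c, with a median of 6.13 CPM. Its P120 levels were 59.1, 41.6, 0.548 and 15.3 CPM in captures 28, 32, 36 and 38. Captures 28 and 32 exceeded every P60 capture, and capture 36 was near the bottom of the range. The log2 fold changes were 0.72 with an SE of 1.93 for *Tob1* and 0.96 with an SE of 2.18 for *Tob2*, both with an edgeR adjusted p of 1. *Btg3* had reads in captures 31 and 40 at P60 and in capture 28 at P120, at 0.470, 2.28 and 0.226 CPM, and did not pass the filter on low counts.

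**Figure D1:**
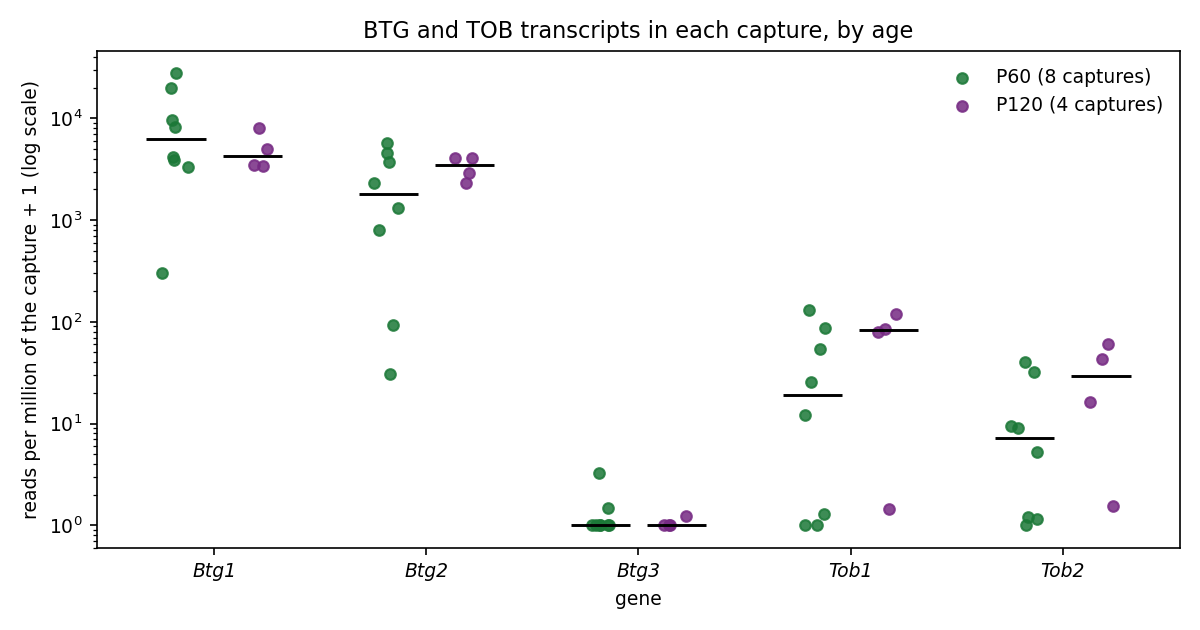
CPM (plus 1, log scale) of each gene in each capture, with P60 captures in green and P120 captures in purple, and a bar at the median. *Btg1* and *Btg2* lie far above *Tob1* and *Tob2*, *Btg3* is at or near 0, and the ages overlap for every gene.

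Over all 8346 genes tested, 5 were called higher at P120 and 5 lower, which is 0.0599% in each direction, and the calls included 0 of the 4 members tested. The median log2 fold change of all genes was 0.26. With RLE size factors the calls were 0 higher and 1 lower, and with total reads only 1 higher and 4 lower. Since 6 of the 8 P60 captures came from run S047 and no P120 capture did, the ages were also compared within the S059 runs. There, with 2 P60 and 4 P120 captures, the log2 fold change was -0.15 with an SE of 0.95 for *Btg1*, 0.82 with an SE of 1.09 for *Btg2*, -0.11 with an SE of 2.07 for *Tob1* and 1.98 with an SE of 2.94 for *Tob2*. None of these passed, and the direction for *Tob1* was opposite to that over all captures.

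The shares of cells with a read are given by age as a description, without a test. *Btg1* had a read in a mean of 97.1% ± 8.16 (SD, n = 8) of the cells of a P60 capture and in 98.4% ± 1.89 (SD, n = 4) of those of a P120 capture. For *Btg2* the averages were 87.3% ± 17.6 (SD, n = 8) and 99.3% ± 1.35 (SD, n = 4), and its lowest share, 53.8%, was in the shallow capture 10c. After thinning, *Btg2* had a read in 64 of 80 P60 cells and 74 of 84 P120 cells, with overlapping intervals of 69.6% to 88.1% and 79.2% to 94.1%. *Tob1* averaged 29.9% ± 24.3 (SD, n = 8) and 34.6% ± 14.4 (SD, n = 4), and *Tob2* 12.6% ± 7.01 (SD, n = 8) and 16.9% ± 11.6 (SD, n = 4).

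To set the members beside proliferation transcripts, the cells were divided by their reads of *Mki67* and *Top2a*. The 62 cells with 10 or more reads of either gene are called *Mki67*/*Top2a*-positive and the 85 cells with 0 reads of both *Mki67*/*Top2a*-negative. The division counts raw reads and takes no account of depth. Of the negative cells 24 had fewer than 10000 reads on genes, against 0 of the positive cells, and 12 came from the shallow capture 10c. The remaining 64 cells held between 1 and 9 reads of the higher of the pair. *Mki67* and *Top2a* chose the cells and are given without a test, at 577 and 784 CPM in the positive cells and 0 in the negative cells. The reads of the 5 members did not enter the division. Close to the threshold there were few cells. The 3 cells at 10 to 14 reads had a median of 9364 CPM of *Btg1* and 2023 CPM of *Btg2*, and the 4 cells at 5 to 9 reads had medians of 1019 and 257 CPM.

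In summed reads, *Btg1* and *Btg2* were both lower in the *Mki67*/*Top2a*-positive cells than in the negative cells of the same capture, whereas *Tob1* went both ways. For the test, the 6 captures that held 3 or more cells of each kind were used, 3 at each age, with the capture as a block. *Btg1* stood at 1325 CPM in the positive and 13793 CPM in the negative cells of capture 9c, 2235 and 13203 CPM in capture 31, and 1173 and 1537 CPM in capture 40. In the P120 captures it stood at 1571 and 6340 CPM in capture 28, 1123 and 6513 CPM in capture 32, and 1739 and 13572 CPM in capture 38. The summed level of *Btg1* was thus lower in the positive cells in 6 of 6 captures, by a median ratio of 5.85. Capture 40 differed by a ratio of only 1.31, and its negative cells lay within the range of the positive cells of other captures. In capture 32 the median cell went the other way from the sums, at 890 CPM in the positive and 577 CPM in the negative cells. In the other captures tested the median cell was lower among the positive cells. The edgeR test gave a log2 fold change of positive over negative of -3.19 with an SE of 0.59 and an adjusted p of 0.0063, a 9.10-fold lower level on the TMM scale. With total reads as the scale the value was -2.34.

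*Btg2* stood at 421 CPM in the positive and 8073 CPM in the negative cells of capture 9c, 288 and 7372 CPM in capture 31, and 778 and 3258 CPM in capture 40. In the P120 captures the levels were 2004 and 8617 CPM in capture 28, 1789 and 6513 CPM in capture 32, and 2130 and 3595 CPM in capture 38. Every positive sum lay below every negative sum, and the ratio within a capture ran from 1.69 in capture 38 to 25.6 in capture 31. The log2 fold change was -3.44 with an SE of 0.72 (edgeR adjusted p = 0.0231), or 10.9-fold lower on the TMM scale, and -2.58 with total reads as the scale. Without capture 9c the adjusted p was 0.0526.

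For reference, 69 of the 10966 genes tested, 0.629%, were called lower in the positive cells, and 1827, 16.7%, higher. These counts rest on single captures, with 11 lower and 7 higher without capture 9c, 12 lower and 10 higher without capture 32, and 11 in each direction with at least 5 cells of each kind. Lower CPM in the positive cells of all 6 captures was found for 73 genes, 0.666%, and 28 genes, 0.255%, had no overlap between the kinds of cell in that direction. The median log2 fold change of all genes tested was 4.34 with TMM, 4.22 with RLE size factors and 4.88 with total reads, and 16.8% of genes were below 0. The median also moved with other settings, to 2.55 with DESeq2, 2.60 with *Mki67* alone and 1.63 with *Top2a* alone. It was 1.15 without the filter and 0.149 without the capture block. The median gene is thus no fixed reference, and *Btg1* and *Btg2* are not read against it. Both kept their direction with TMM, RLE size factors and total reads. Since the genes were picked with results of these cells already known, the adjusted p-values are not independent evidence.

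**Figure D2:**
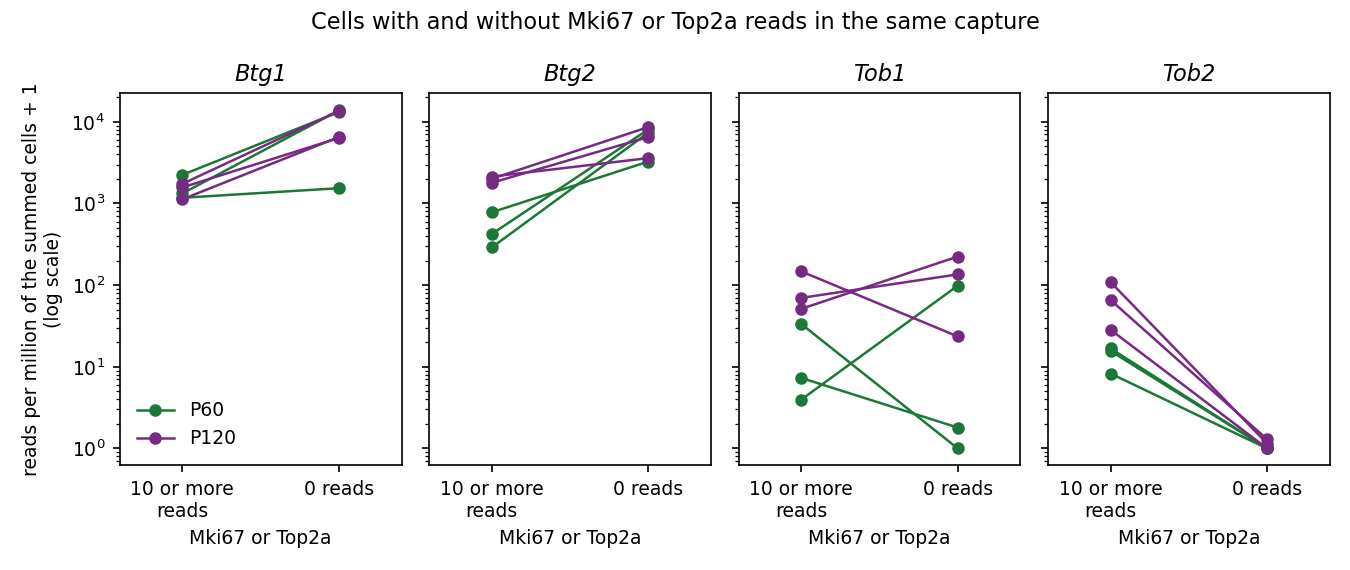
CPM (plus 1, log scale) of the cells with 10 or more reads and of the cells with 0 reads of *Mki67* or *Top2a*, joined within each of 6 captures, green for P60 and purple for P120. The sums of *Btg1* and *Btg2* rise toward the cells with 0 reads in all 6 captures, *Tob1* goes both ways, and *Tob2* is near 0 in the cells without reads.

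The captures left out of the test held fewer cells of one kind. In capture 17c the single positive cell had 3.87 CPM of *Btg1* against 37182 CPM in 2 negative cells, and in capture 19c the single positive cell had 158 CPM against 27950 CPM in 3 negative cells. Capture 36 went the other way for *Btg1*, with 5374 CPM in 2 positive cells and 3421 CPM in 6 negative cells. For *Btg2* the positive cells were lower in all 3, at 0.387 against 133 CPM, 795 against 17023 CPM and 3975 against 10393 CPM.

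The difference in *Btg1* was one of level more than of detection. For *Btg2* the thinned share of cells with a read was also lower in the positive cells, but shares were not tested. Among the deeper cells the median of *Btg1* was 517 CPM in positive, 6003 CPM in intermediate and 8683 CPM in negative cells. The intermediate cells thus stood nearer the negative cells. *Btg2* had medians of 84.9, 683 and 2347 CPM in the same order. At least 10000 CPM of *Btg1* was reached by 2 of 61 positive cells, 17 of 48 intermediate cells and 25 of 55 negative cells. For *Btg2* the counts were 3, 2 and 11. Together the pair took 0.295% of the reads of the deeper positive cells, 1.18% of the intermediate and 1.72% of the negative cells.

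**Figure D3:**
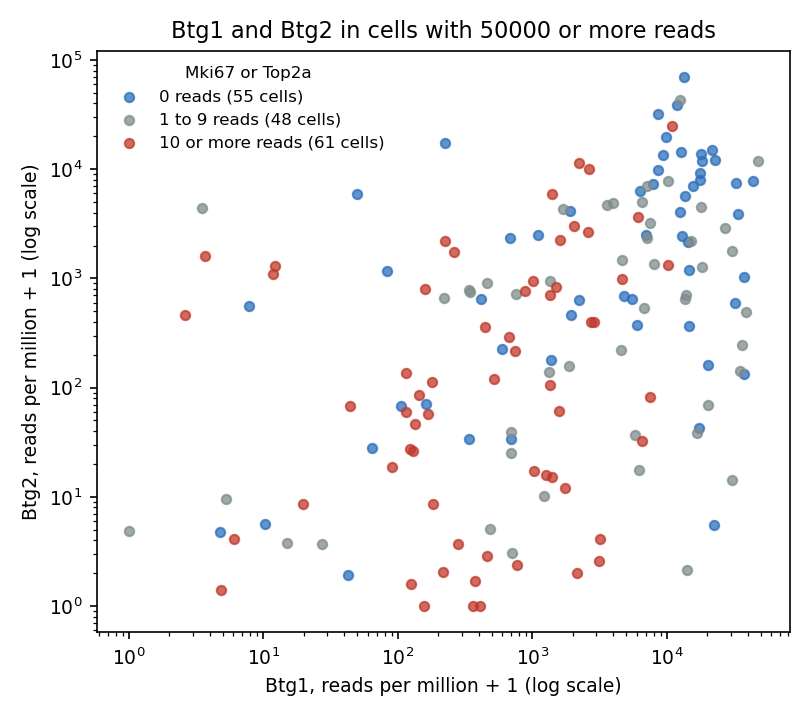
*Btg1* against *Btg2* in CPM (plus 1, both axes log) in the 164 cells with at least 50000 reads, colored by the reads of *Mki67* or *Top2a*. Cells with 0 reads crowd at the upper right, and only 2 of 61 cells with 10 or more reads lie at or beyond 10000 CPM of *Btg1*.

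After thinning to 50000 reads, *Btg1* had a read in 91.8% of positive and 94.5% of negative cells, with overlapping intervals. *Btg2* had a read in 73.8% of positive cells (interval 60.9% to 84.2%), 85.4% of intermediate cells and 94.5% of negative cells (interval 84.9% to 98.9%). These intervals pool cells over captures and cover counting error only. Within each age they overlapped, at 48.2% to 85.7% in positive and 72.6% to 97.8% in negative P60 cells. For P120 cells they were 59.9% to 89.6% and 86.8% to 100%. Without thinning the *Btg2* shares were 95.2% in positive and 91.8% in negative cells, at median depths of 1802922 and 262658 reads per cell. In the thinned sums of the same captures the log2 fold change was -2.65 for *Btg1* and -2.90 for *Btg2*, with edgeR adjusted p-values of 0.0028 and 0.0199.

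*Tob2*, whose product also binds poly(A)-binding protein, had nearly no reads in the negative cells of these captures. It entered the test through the positive cells, where it is high, so its values are given as a description. Its levels in the positive cells were 7.27, 15.8 and 14.6 CPM in captures 9c, 31 and 40, and 108.01, 64.8 and 27.4 CPM in captures 28, 32 and 38. In the negative cells it had 2 reads in capture 28, 1 read in capture 32 and 0 reads in the other 4 captures. Summed over the 6 captures, this is 4846 reads in 21 of 58 positive cells against 3 reads in 3 of 53 negative cells, a ratio of CPM of 734 with a counting interval from 251 to 3562. The interval treats amplified reads as independent molecules and is too narrow, since 37.5% of all *Tob2* reads came from 1 cell. The sums of the kinds of cell did not overlap, as was true of 10.4% of all genes tested. The edgeR adjusted p was 0.0239 and is not read as support, and the fitted fold change is not given as a size. Outside these captures the negative cells held 144 *Tob2* reads in capture 21c, and over all captures a read was seen in 6 of 85 negative cells. After thinning, *Tob2* had a read in 21.3% of positive cells (interval 11.9% to 33.7%), 4.17% of intermediate cells and 1.82% of negative cells (interval 0.0460% to 9.72%). The edgeR adjusted p of *Tob2* rose above 0.05 with the direction kept in 8 of 19 alternatives. The values were 0.673 for *Mki67* alone, 0.254 for *Top2a* alone, 0.112 with the run in the block and 0.0622 with at least 5 cells of each kind. They were 0.0556 after thinning, 0.0538 without capture 9c, 0.0528 without capture 32 and 0.0521 without the filter. In 1 other, without precursor cells, the direction reversed and the adjusted p was 0.921.

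*Tob1* had no common direction. It was higher in the positive cells of captures 9c (32.5 against 0 CPM), 40 (6.31 against 0.800 CPM) and 32 (146 against 22.5 CPM). It was lower in those of captures 31 (2.95 against 97.4 CPM), 28 (68.7 against 134 CPM) and 38 (50.1 against 223 CPM). The log2 fold change was -0.29 with an SE of 2.75 (edgeR adjusted p = 0.946) and changed sign with total reads as the scale, to 0.66. The thinned shares were 19.7%, 18.8% and 21.8% in positive, intermediate and negative cells. *Btg3* was seen in 3 positive cells, 1 intermediate cell and 0 of 85 negative cells, which allows a share of up to 4.25%, and the test gave an adjusted p of 0.181.

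**Figure D4:**
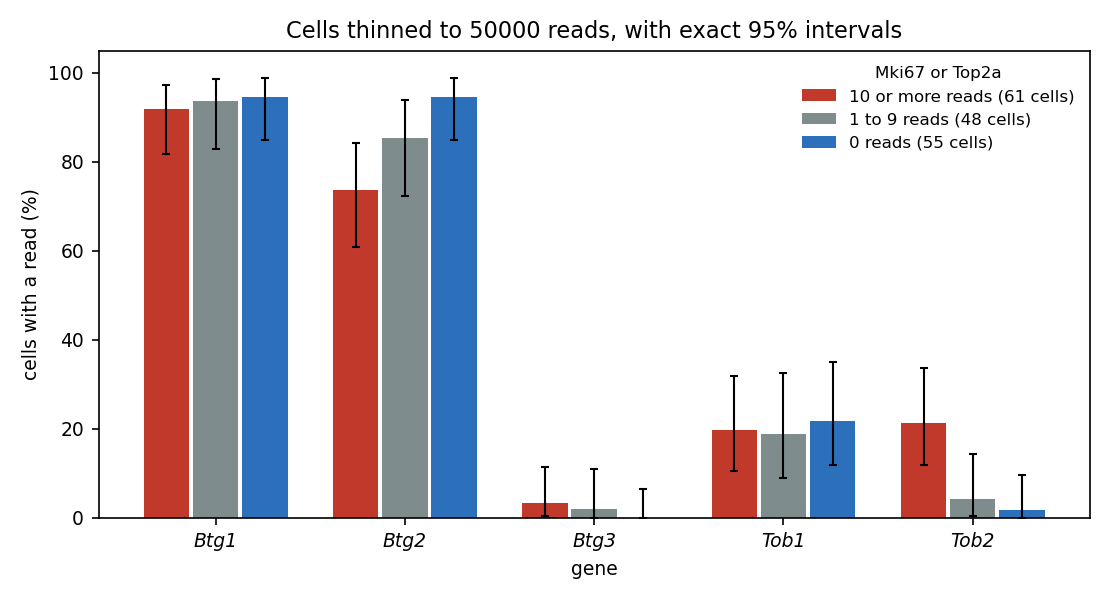
Share of cells with a read of each gene (percent) after thinning each cell to 50000 reads, by reads of *Mki67* or *Top2a*, with exact 95% intervals. The *Btg2* share is 73.8% in cells with 10 or more reads and 94.5% in cells with 0 reads, the *Tob2* shares are 21.3% and 1.82%, and the intervals of *Btg1* and *Tob1* overlap. The intervals pool cells over captures and cover counting error only, not the spread between captures.

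The positive cells of the 6 captures tested were also set side by side by age, as sums per capture. *Btg2* stood at 288 to 778 CPM in the 3 P60 captures and 1789 to 2130 CPM in the 3 P120 captures. The ages did not overlap for *Btg2*, nor for *Tob1*, at 2.95 to 32.5 and 50.1 to 146 CPM, and *Tob2*, at 7.27 to 15.8 and 27.4 to 108.01 CPM, and 4.45% of all genes tested separated in this way. The other captures with positive cells held 1 or 2 of them. With these the separation was gone for *Tob1* and *Tob2*, since the P120 capture 36 had 0.412 and 0 CPM. For the sums of *Btg2* it remained. In the median positive cell *Btg2* overlapped between the ages. This cell stood at 98.4, 23.3 and 347 CPM in captures 9c, 31 and 40. In captures 28, 32 and 38 it stood at 25.7, 463 and 31.4 CPM. Over all deeper positive cells *Btg2* ran against the sums, with a median of 59.1 CPM for P120 against 174 CPM for P60. *Btg1* overlapped, at 1173 to 2235 and 1123 to 1739 CPM. The ages were not tested within these cells. In the negative cells the *Btg2* levels of both ages overlapped, at 3258 to 8073 CPM and 3595 to 8617 CPM.

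Other properties of the cells moved with this division. The positive cells had a median of 2093 genes detected after thinning, against 801 in the negative cells, and a median GFP score (the authors' scaled intensity of the cell image) of 216.5 against 387. The granulocyte precursor markers, of which 5 of 6 were in the table, summed to between 3953 and 22744 CPM in the positive cells of the 6 captures and between 1.17 and 10930 CPM in the negative cells. *Mpo*, *Elane*, *Prtn3* or *Ctsg*, granule proteases and peroxidase of these precursors, reached 10 reads in 72.6% of positive and 9.41% of negative cells. All 6 basophil markers had reads, with 13757 CPM in the positive, 11172 CPM in the intermediate and 5.66 CPM in the negative cells. At least 3 of them reached 10 reads in only 22.6% of positive cells. Their sum in the positive cells ran from 0.340 to 39375 CPM over the 6 captures. The 12 neutrophil markers summed to 81520 to 211890 CPM in the positive and 67219 to 206186 CPM in the negative cells of the 6 captures.

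Of the 12, 4 were called lower in the positive cells and 0 higher, and their median log2 fold change was -2.19. The 4 were *Retnlg* (-5.03, edgeR adjusted p = 5.74e-07), *Mmp8* (-6.02, adjusted p = 0.000928), *Mmp9* (-6.10, adjusted p = 0.0148) and *S100a9* (-1.32, adjusted p = 0.0148). The first 3 are transcripts of mature neutrophils. *Camp* and *Ngp*, transcripts of earlier granulocyte stages, had log2 fold changes of 2.06 and 1.80 and did not pass (adjusted p = 0.125 and 0.0644). Of 10 leukocyte markers, summing to 7709 CPM in the positive and 16849 CPM in the negative cells, 1 was called lower, *Tyrobp* (adjusted p = 0.0310), and their median log2 fold change was -1.57. In the same fit the median log2 fold change was 9.14 for the granulocyte precursor markers, with 5 of 5 tested called higher. It was 8.90 for the basophil markers, with 5 of 6 called higher, and -0.85 for the 6 SC markers tested, with 0 called.

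Within the positive cells, *Btg1* stood at 1136 CPM in cells with the precursor transcripts and 2695 CPM in cells without them, and within the negative cells at 4597 and 11445 CPM. *Btg2* stood at 1485 and 1354 CPM within the positive and at 4491 and 6437 CPM within the negative cells. In sums of only the cells without precursor transcripts, over 5 captures, the log2 fold change was -1.87 with an SE of 1.30 for *Btg1* (edgeR adjusted p = 0.632) and -2.73 with an SE of 1.33 for *Btg2* (edgeR adjusted p = 0.606), and for *Tob2* it was -1.19 with an SE of 2.62 (adjusted p = 0.921). With the capture and sequencing run together as the block, over 5 combinations of the pair, *Btg1* had -4.10 with an SE of 1.46 and *Btg2* -3.60 with an SE of 1.398 (edgeR adjusted p = 0.0881 and 0.0902). Both this fit and the one without precursor transcripts asked for 2 or more cells of each kind in place of 3. Each thus differs from the fit as reported in more than 1 setting. The part of cell kind, detected genes and run in these differences was not tested beyond these values.

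**Figure D5:**
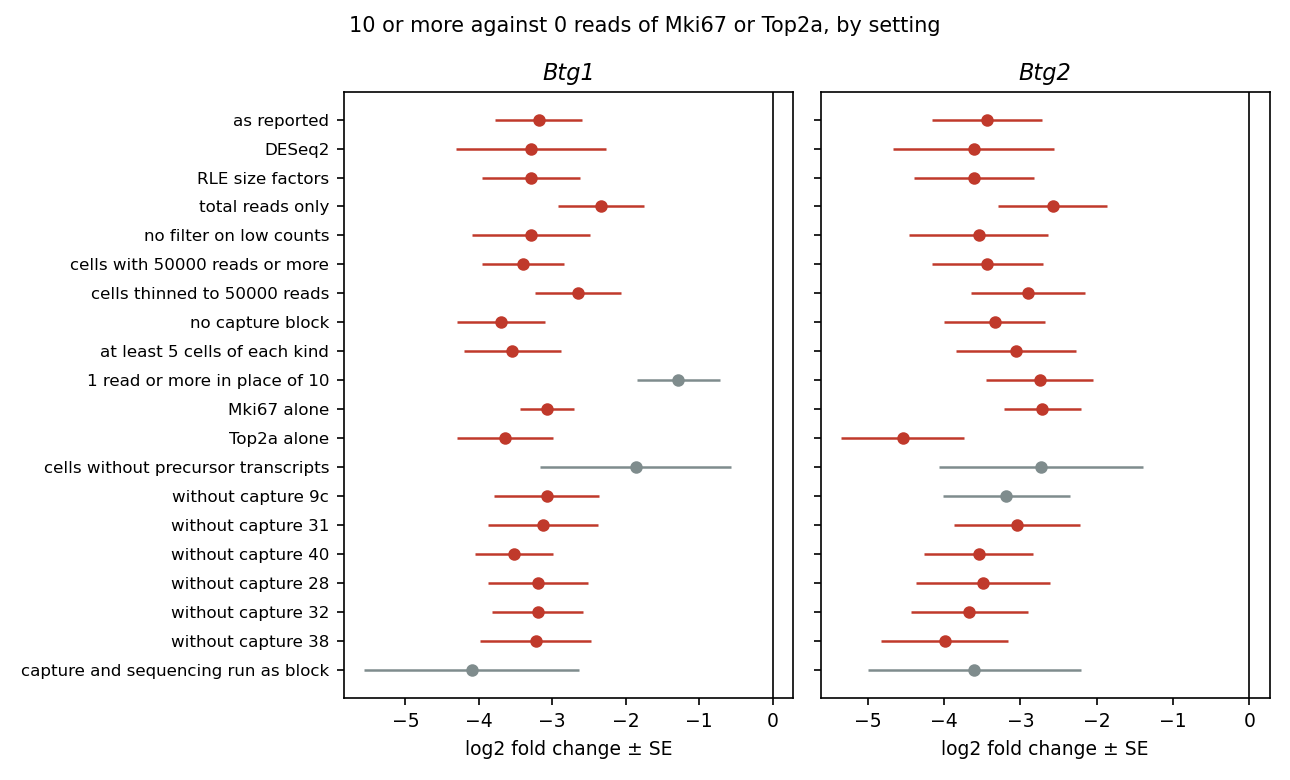
Log2 fold change of *Btg1* and *Btg2* between cells with 10 or more and with 0 reads of *Mki67* or *Top2a*, with bars of 1 SE, for the result as reported and for each alternative. Red marks an adjusted p under 0.05, and every value lies below 0, from -4.54 to -1.29.

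The partners of the family were read from a list of 17 genes of the CCR4-NOT complex and of poly(A) metabolism. All 17 had reads, and their summed level was 2146 CPM in the positive and 1253 CPM in the negative cells. Of the 16 tested, 4 were called higher in the positive cells and 0 lower, beside the 16.7% of all genes called higher, and their median log2 fold change was 5.05 beside 4.34 for all genes. The 4 were *Cnot6*, a deadenylase, *Cnot9*, a scaffold subunit, *Pan2*, the nuclease of a further deadenylase complex, and *Pabpc4*, a poly(A)-binding protein. Averaged over the 6 captures, *Cnot6* stood at 46.9 CPM in the positive and 0.283 CPM in the negative cells (edgeR adjusted p = 0.0290), and *Cnot9* at 282 and 0.770 CPM (adjusted p = 0.0242). The levels of *Pan2* were 29.1 and 0.0366 CPM (adjusted p = 0.0274) and those of *Pabpc4* 11.6 and 0.867 CPM (adjusted p = 0.0356). All 4 were near 0 in the negative cells and entered the test through the positive cells, so their count is a description and no support for a change of the list.

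*Cnot7* and *Cnot8*, the deadenylase subunits that BTG and TOB proteins bind, did not pass. *Cnot7* averaged 90.7 CPM in the positive and 30.02 CPM in the negative cells of the 6 captures, with a log2 fold change of 7.72 (edgeR adjusted p = 0.133). The averages differ much less than this fitted value, which is not read as a size. *Cnot8* averaged 55.3 and 129 CPM, while its fitted log2 fold change was 5.10 (adjusted p = 0.249), so the average and the fit differ in direction and none is given. For *Cnot6l*, a further deadenylase, the log2 fold change was 1.98 (adjusted p = 0.688), and for *Cnot1*, the scaffold of the complex, 3.83 (adjusted p = 0.321). Over all captures *Cnot1* took 181 CPM in the positive and 144 CPM in the negative cells, so its fitted value is no size either. *Pabpc1*, the main cytoplasmic poly(A)-binding protein, had 1.13 (adjusted p = 0.528), and *Prmt1*, an arginine methyltransferase that binds *Btg1* and *Btg2* products, 4.27 (adjusted p = 0.174). Between the ages 0 of the 16 were called. Of 20 further proliferation genes, whose reads follow the choice of cells, 18 were called higher in the positive cells, with a summed level of 4203 CPM against 36.9 CPM.

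Across the 164 deeper cells, *Btg1* and *Btg2* correlated with each other with a Spearman rho of 0.481. The other 9 pairs of members lay between -0.18 and 0.24. Over the 3788 genes with a read in at least 25% of these cells, the genes most like *Btg1* were *Ccl6* (rho 0.600), *Ftl1* (0.590) and *Pim1* (0.588), and those most like *Btg2* were *Ccl6* (0.545), *Zfp36* (0.500) and *C5ar1* (0.489). For *Tob1* they were *Ap2m1* (0.340), *Pan3* (0.339) and *Abracl* (0.335), for *Tob2* *Glrx3* (0.492) and *Mif* (0.476), and for *Btg3*, with reads in 4 cells, *Slc35e1* (0.328), *Nop56* (0.327) and *Rpl6l* (0.326). *Btg1* and *Btg2* also ran against the number of genes detected, with rho of -0.47 and -0.39, while *Tob1* and *Tob2* ran with it, at 0.287 and 0.394. With the GFP score, rho was 0.145 for *Btg1* and 0.156 for *Btg2*. These correlations are a description over cells that share captures and differ in depth and in detected genes.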

How the data were processed

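Single-cell libraries from GFP-sorted cochlear cells at P60 and P120 were analyzed. According to the paper, the authors aligned the reads with STAR to GRCm38 and removed endothelial cells and outliers before deposit. The deposited values are raw read counts per gene and cell, without molecular identifiers, for 211 cells, 48709 genes and 92 spike-in sequences. The authors also deposited a GFP score per cell, whose scaling is not given in the sources used here. Whether strand was used in counting is not given either. No doublet caller was run, and no cells were removed here.

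Gene identifiers were matched without version to GENCODE vM21 names (48349 matched), and promoters came from RefSeq (GRCm38.p6). Sums of counts over the cells of a capture, or over its cells of one kind, were tested with edgeR 4.0.16 in R 4.3.3, using TMM scaling, filterByExpr and the quasi-likelihood F test. P-values were adjusted over all genes tested by Benjamini-Hochberg, with a threshold of 0.05. The comparison of cells took the capture as a block. DESeq2 1.42.0 was the other tool. Cells with at least 50000 reads were thinned once to that number. Intervals are exact Clopper-Pearson 95% intervals, and those given for log2 fold changes are approximate, from the SE. Likeness used Spearman's rho of log2(CPM + 1). Python 3.11.15, pandas 2.3.3, numpy 2.4.6, scipy 1.17.1 and matplotlib 3.10.9 served for tables and plots.

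The members, the lists of marker and partner genes and the tests were chosen with earlier results of these data known. The genes named are the 5 members, the rest of the family, *Mki67* and *Top2a*, from the partner list those called and *Cnot7*, *Cnot8*, *Cnot6*, *Cnot6l*, *Cnot1*, *Pabpc1* and *Prmt1*, and the 3 genes most like each member, of which 1 is not reported here. The neutrophil and leukocyte markers named were chosen after their values were seen. Alternatives covered the tool, normalization, filter, depth, thinning, run, block, minimum cells, division of the cells and each capture left out. The split by precursor transcripts, the block of capture and run and the comparison within the S059 runs were added after the data were seen. Cells from P1, the ddPCR and the imaging were not analyzed here.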

Additional observations from a re-analysis of the deposited data

Results flagged for a closer look

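The spread of each member over captures, on the scale of log2(CPM + 1), was searched for a capture that stood apart. Dixon's test at the 95% level was used in groups of 4 to 10, and 5 flags arose from 19 groups. Chance flags about 1 in 20 groups only where groups are independent and normal. These groups share captures and those of *Btg3* are mostly 0, so the number of flags cannot be set against that rate. *Btg1* was lowest at P60 in capture 10c, at 302 CPM, which is also the shallowest capture. *Btg1* in the *Mki67*/*Top2a*-negative cells was lowest in capture 40, at 1537 CPM, from 3 cells. Without capture 40 the log2 fold change of *Btg1* between the kinds of cell was -3.52, with an edgeR adjusted p of 1.45e-05. *Btg3* stood apart at P60 in capture 40, at 2.28 CPM, and at P120 in capture 28, at 0.226 CPM, since nearly all other captures had 0 reads. *Tob1* at P120 was lowest in capture 36, at 0.438 CPM, which rests on 4 reads.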

How the results depend on the processing

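Of 169 alternative values of the members' log2 fold changes, 143 kept their direction and their side of the threshold, 14 kept the direction and lost the call, and 12 reversed. *Btg1* and *Btg2* each lost the call between kinds of cell in 3 of 19 alternatives and kept the negative direction in all 19. *Btg1* lost it with 1 read in place of 10 (-1.29, adjusted p = 0.0972), *Btg2* without capture 9c (adjusted p = 0.0526), and both with the precursor cells left out and with the run in the block. Over the captures left out in turn, *Btg1* ran from -3.52 to -3.08 and *Btg2* from -3.99 to -3.04.

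Reversed between kinds of cell were *Tob1* with total reads (0.66), with at least 5 cells of each kind (0.23), with 1 read in place of 10 (0.30), with the run in the block (6.16) and with captures left out (-1.50 to 0.90), *Btg3* with DESeq2 (-1.07, with no adjusted p) and *Tob2* without precursor cells (-1.19). Between the ages, *Tob1* reversed with the run in the model (-0.16) and within the S059 runs (-0.11), and *Btg2* without capture 36 (-0.017, in a range of -0.017 to 1.14 over the captures left out). Of 75 alternative shares of cells, 73 moved by less than 1 SD of the captures. The others were the shares at 10 or more reads, 82.9% for *Btg1* and 70.6% for *Btg2*.

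The 10 genes called between the ages became 1 with RLE size factors, 5 with total reads, 22 without the filter, 0 with thinned cells (211 at an unadjusted p under 0.05 in edgeR), 0 with the run in the model (783), 2 within the S059 runs and 1 to 16 with captures left out. Without the filter 17 were higher and 5 lower. At an unadjusted p under 0.05 there were 443 genes in the comparison as reported. The 1896 genes called between kinds of cell became 4082 with DESeq2, 3010 with total reads, 326 without the filter, 218 with thinned cells, 738 without the capture block, 22 with at least 5 cells of each kind (11 in each direction), 77 with *Mki67* alone, 69 with *Top2a* alone, 1 without precursor cells, 0 with the run in the block (2745 at an unadjusted p under 0.05 in edgeR) and 18 to 1546 with captures left out. It was 18 without capture 9c (7 higher, 11 lower) and 22 without capture 32 (10 higher, 12 lower). The cause of these shifts was not tested. A fit of the cells with precursor transcripts alone was planned and could not be made, since only 1 capture held enough cells of both kinds. The kinds of cell were compared within captures throughout. Between the ages, no paired analysis was possible because no capture holds both. Thinning lowered the share of cells with a read from 94.8% to 84.1% for *Btg2*, from 34.6% to 20.1% for *Tob1* and from 16.6% to 9.76% for *Tob2*.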
